A study of Mus musculus with 20 samples.

Results

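The genes described here are 10 transcripts of mitophagy and autophagy, chosen by name: Bnip3, Bnip3l, Fundc1, Pink1, Sqstm1, Optn, Gabarapl1, Map1lc3b, Ulk1 and Becn1. All 10 were present in each of the 4 deposited expression tables, among 14700 gene symbols in all. They were measured by RNA sequencing in 20 libraries of mouse primary cortical neurons, 5 for each of 4 groups. The neurons came from embryonic day 15 cortex and had been cultured for 7 days.

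The groups crossed genotype with treatment. Wild-type cultures (WT) and knockout cultures (KO), which lack ciRS-7, a circular transcript of the gene Cdr1as, were returned to the incubator in normoxia (N) or put under oxygen and glucose deprivation (OGD). The labels give every library, WT included, the strain C57BL/6N-Cdr1asem1Nikr. Both treatments used a glucose-free base medium with B27. For N it was supplemented with 25 mM glucose and 0.2 mM pyruvate, and OGD cultures received neither and were held at 1% oxygen for 12 h. The labels number the cultures WT1 to WT5 and KO1 to KO5 and give each a batch, which is the same for the N and the OGD library of a number. Batch 3.1 held WT5, KO2 and KO4, batch 3.3 held WT2, WT4 and KO5, batch 1 held WT1 and KO1, batch 2 held KO3 and batch 3.2 held WT3. What a number stands for (an embryo, a litter or a plate) and whether animals were pooled are not given in the sources used here.

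Mitophagy is the removal of mitochondria by autophagy. Receptors in the outer mitochondrial membrane (Bnip3, Bnip3l, also called Nix, and Fundc1) bind the ATG8 proteins of the forming autophagosome directly, while the kinase Pink1 marks damaged mitochondria so that ubiquitin is recognised by adaptors such as Sqstm1 (p62) and Optn. Gabarapl1 and Map1lc3b (LC3B) are ATG8 proteins, Ulk1 is the kinase that starts autophagosome formation, and Becn1 is a subunit of the lipid kinase complex that follows it. Bnip3 is a textbook target of the hypoxia-inducible factors, which bind a short core written ACGTG or GCGTG.

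The stretch upstream of the start site is shown for 3 genes that the results turn on: Bnip3, which rose most of the 10 under OGD, Pink1, which was not called, and Ulk1, which fell in WT. RefSeq promoters on GRCm38.p6 were matched by symbol for 8 of the 10 genes, all but Bnip3l and Becn1. Each line runs 5′ to 3′ from 250 to 31 bases before the RefSeq start, 220 bases in all. Every match to ACGTG or GCGTG on either strand, which also reads CACGT or CACGC, is in capitals.

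Bnip3: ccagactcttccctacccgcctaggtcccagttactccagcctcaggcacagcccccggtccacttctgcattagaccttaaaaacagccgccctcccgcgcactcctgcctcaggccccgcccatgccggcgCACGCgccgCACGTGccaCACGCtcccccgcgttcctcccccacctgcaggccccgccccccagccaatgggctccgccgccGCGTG
Pink1: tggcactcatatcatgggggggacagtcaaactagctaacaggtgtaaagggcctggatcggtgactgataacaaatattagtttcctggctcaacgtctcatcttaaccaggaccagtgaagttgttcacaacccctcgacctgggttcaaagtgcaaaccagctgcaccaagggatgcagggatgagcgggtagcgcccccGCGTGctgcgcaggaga
Ulk1: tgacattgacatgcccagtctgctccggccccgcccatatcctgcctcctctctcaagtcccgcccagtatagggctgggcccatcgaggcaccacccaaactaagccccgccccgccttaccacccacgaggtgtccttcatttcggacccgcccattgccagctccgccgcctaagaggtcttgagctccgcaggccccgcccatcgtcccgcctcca

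The Bnip3 stretch (chr7:138909537-138909756, minus strand) held 5 matches, which began 117, 108, 107, 99 and 35 bases before the start. Those at 108 and 107 are the same 6 bases, CACGTG, read on both strands, which are also the E-box. Pink1 (chr4:138326327-138326546, minus strand) held 1 match, 47 bases before the start, and Ulk1 (chr5:110810112-110810331, minus strand) held 0. Of the other 5 genes, Map1lc3b held 5 matches, and Fundc1, Sqstm1, Optn and Gabarapl1 held 0. Over all 32851 RefSeq windows of the same length, 34.7% held at least 1 match to the core and 5.0% held CACGTG. A match is a run of letters and not evidence of binding.

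The libraries held between 7071506 and 16658618 recovered reads, and the 10 genes had between 97 and 2814 reads in any library. Cdr1as had 545 to 1912 reads in WT libraries and 2 to 16 in KO libraries. Every KO library thus lay below every WT library. In every group, replicates 1 and 3 lay much closer to each other than any other pair did. The median squared difference between them was 1.25 to 1.67 times that of sampling noise, against 3.59 to 14.34 times for the 36 other pairs within groups. They also lay near the middle of their group, at a root mean square distance of 0.16 to 0.24 log2 from the mean of replicates 2, 4 and 5, against 0.43 to 0.60 for each of those from the mean of the remaining pair. They still differed by more than sampling noise and were counted as separate libraries. Whether they are pools of, or otherwise related to, the other cultures is not given in the sources used here. If they are, 5 libraries hold fewer than 5 independent samples, and the SDs, SEs and p-values below are too small. With replicates 2, 4 and 5 alone, 1 of the 10 genes was called in each genotype, beside 2411 of 14235 genes in WT and 2341 of 14375 in KO. Of the neuron markers, 9 of 16 fell under OGD in WT and 10 of 16 in KO. Their summed level was 7514 to 8577 CPM, that is, reads scaled to library size, in N_WT and 3967 to 5934 in OGD_WT. It was 7613 to 7903 in N_KO and 3500.2 to 5180.0 in OGD_KO. Marker sums here and below are scaled to the total of recovered reads, whereas the calls use the deposited scaling. On the total-read scale the median log2 difference of all genes under OGD was -0.29 in WT and -0.27 in KO. Astrocyte markers rose for 6 of 9 in WT and 5 of 9 in KO, and 1 fell in WT. All 10 proliferation markers rose in both genotypes. The astrocyte sum was 1244 to 1656 CPM in N_WT, 1614 to 2175 in OGD_WT, 952 to 1747 in N_KO and 1206 to 2222 in OGD_KO. Of the microglia markers 0 of 10 were measured here, and no measured marker of any list was at 0 reads throughout a group. The mitochondrial ribosomal RNA mt-Rnr2 took 10.1% to 16.4% of the reads of N libraries and 13.8% to 32.0% of those of OGD libraries. In bulk RNA, fewer cells of a type and less RNA per cell cannot be told apart, and the part of these shifts in the values below was not tested.

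Under OGD the receptor transcripts Bnip3 and Bnip3l rose in both genotypes, and of the remaining 8 genes Ulk1 alone was called, in WT. In WT neurons Bnip3 rose 4.3-fold and Bnip3l 1.76-fold, and Ulk1 fell to 0.743 of its N level. In KO neurons Bnip3 rose 3.39-fold and Bnip3l 1.64-fold, and no member was called lower. Each comparison was fitted with limma on log2 CPM over all genes of its table, and a call needed a p under 0.05 after Benjamini-Hochberg adjustment. The plot of all 10 genes by library shows the values behind these calls.

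**Figure D1:**
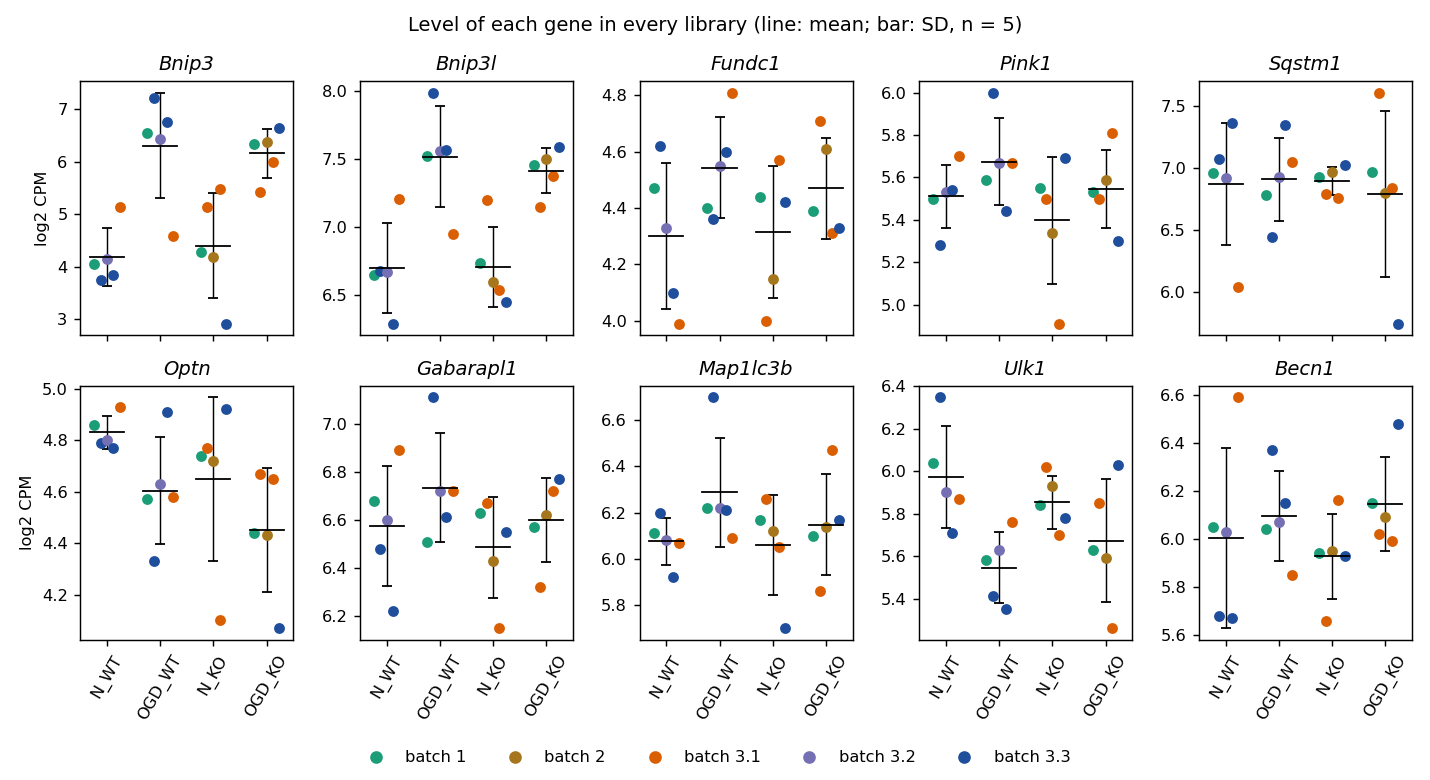
Level of each of the 10 genes (vertical axis, log2 CPM) in every library of the 4 groups, 1 panel a gene with its own axis, with points coloured by the batch label, a line at the group mean and bars of 1 SD (n = 5). N_WT and OGD_WT come from 1 table and N_KO and OGD_KO from another. Bnip3 had OGD means of 6.31 (WT) and 6.16 (KO) against N means of 4.19 and 4.40, and its groups overlapped.

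Bnip3 (ENSMUSG00000078566, chromosome 7, 138890836 to 138909519, minus strand, GRCm38) encodes a receptor that ties mitochondria to the autophagosome. In N_WT its level was 4.05, 3.75, 4.15, 3.84 and 5.14 log2 CPM in replicates 1 to 5, and in OGD_WT it was 6.54, 7.22, 6.44, 6.75 and 4.59. Replicate 5 stood apart in both groups, highest in N and lowest in OGD, and it made the groups overlap. The other 4 cultures were higher under OGD by 2.29 to 3.47, and culture WT5 was lower by 0.56. The mean difference was 2.12 on the log2 scale (SE 0.335, 95% CI 1.43 to 2.81, limma adjusted p 3.44e-05), and it was 2.55 at most and 1.89 at least when any 1 library was left out.

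In KO neurons Bnip3 had 4.28, 5.13, 4.18, 5.49 and 2.92 log2 CPM in N_KO and 6.34, 5.43, 6.38, 6.00 and 6.65 in OGD_KO. It was higher under OGD in 5 of 5 cultures, but by unequal amounts, from 0.30 in KO2 to 3.73 in KO5. The groups overlapped, since N_KO replicate 4 lay above OGD_KO replicate 2. The mean difference was 1.76 (SE 0.341, 95% CI 1.05 to 2.47, limma adjusted p 0.000471).

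Bnip3l (ENSMUSG00000022051, chromosome 14, 66985239 to 67008877, minus strand) encodes Nix, the close relative of Bnip3 best known for clearing mitochondria from maturing red cells. Its N_WT levels were 6.65, 6.68, 6.67, 6.29 and 7.21 log2 CPM, and its OGD_WT levels were 7.52, 7.99, 7.56, 7.57 and 6.95. As for Bnip3, replicate 5 was the highest of N_WT and the lowest of OGD_WT, and the other 4 cultures were higher under OGD. The mean difference was 0.82 (SE 0.184, 95% CI 0.44 to 1.20, limma adjusted p 0.00116). In N_KO it had 6.74, 7.20, 6.60, 6.54 and 6.45, and in OGD_KO 7.46, 7.15, 7.50, 7.38 and 7.59, with KO2 alone not higher under OGD. The mean difference in KO was 0.71 (SE 0.160, 95% CI 0.38 to 1.04, limma adjusted p 0.00169). With replicates 2, 4 and 5 alone, Bnip3l was no longer called, at 0.78 in WT (limma adjusted p 0.0689) and 0.64 in KO (limma adjusted p 0.176). Bnip3 was called at 1.94 and 1.52, but this fit takes its spread mainly from all genes. The SE in WT was 0.306 for Bnip3 and 0.314 for Bnip3l, so the wider spread of Bnip3 between cultures hardly enters.

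Ulk1 (ENSMUSG00000029512, chromosome 5, 110784488 to 110810097, minus strand) encodes the kinase that starts autophagosome formation. It had 6.04, 6.35, 5.90, 5.71 and 5.87 log2 CPM in N_WT and 5.58, 5.41, 5.63, 5.35 and 5.76 in OGD_WT. It was lower under OGD in 5 of 5 WT cultures, by 0.11 to 0.93, with overlapping groups. The mean difference was -0.43 (SE 0.149, 95% CI -0.74 to -0.12, limma adjusted p 0.0231). The call was lost with replicates 2, 4 and 5 alone (-0.47, adjusted p 0.323) and with batch 3 cultures only (-0.42, adjusted p 0.1). It was also lost with replicates 1 and 3 averaged (adjusted p 0.0858), without N_WT replicate 2 (adjusted p 0.0641) and without N_WT replicate 1 (adjusted p 0.0570). In KO it had 5.84, 6.02, 5.93, 5.70 and 5.78 in N and 5.63, 5.85, 5.59, 5.26 and 6.03 under OGD, lower in 4 of 5 cultures, with a mean difference of -0.18 (SE 0.152, limma adjusted p 0.358). The difference between the genotypes in this response was 0.22 (SE 0.20, limma adjusted p 1.0). A two-sided exact permutation test of 5 against 5 libraries, whose smallest possible p is 0.00794, gave 0.0159 for Bnip3 and for Bnip3l in each genotype and for Ulk1 in WT. The same test gave 0.0317 for Map1lc3b and 0.0397 for Optn in WT, which limma did not call. For the other members under OGD it gave 0.0952 or more. These permutation p-values were not adjusted.

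The share of called genes among the 10 lay close to or below that among all genes. In WT, 2 of 10 were called higher, against 21.6% of 14235 genes tested, and 1 of 10 was called lower, against 22.8%. In KO, 2 of 10 were called higher, against 21.0% of 14375 genes, and 0 of 10 lower (0 also at an unadjusted p under 0.05 and with limma voom), against 19.9%. None of the 10 had groups that did not overlap, in either genotype, against 26.9% of all genes in WT and 25.8% in KO. The median difference over the 10 was 0.16 in WT and 0.13 in KO, beside -0.03 and 0.00 over all genes.

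The split of calls depended on the scaling of the libraries. With the total of recovered reads in place of the deposited scaling, the median of all genes moved to -0.29 in WT and -0.27 in KO. The calls over all genes were then 1636 higher and 5764 lower in WT, against 3069 and 3244 with the deposited scaling. In KO they were 1496 and 5315, against 3021 and 2863. On that scale Bnip3 (1.84 and 1.47) and Bnip3l (0.54 and 0.42) were still called higher in WT and KO. Ulk1 was called lower in both (-0.71 and -0.47), as was Optn (-0.50 and -0.48), and relative to the moved median these values lie close to those of the deposited scaling.

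**Figure D2:**
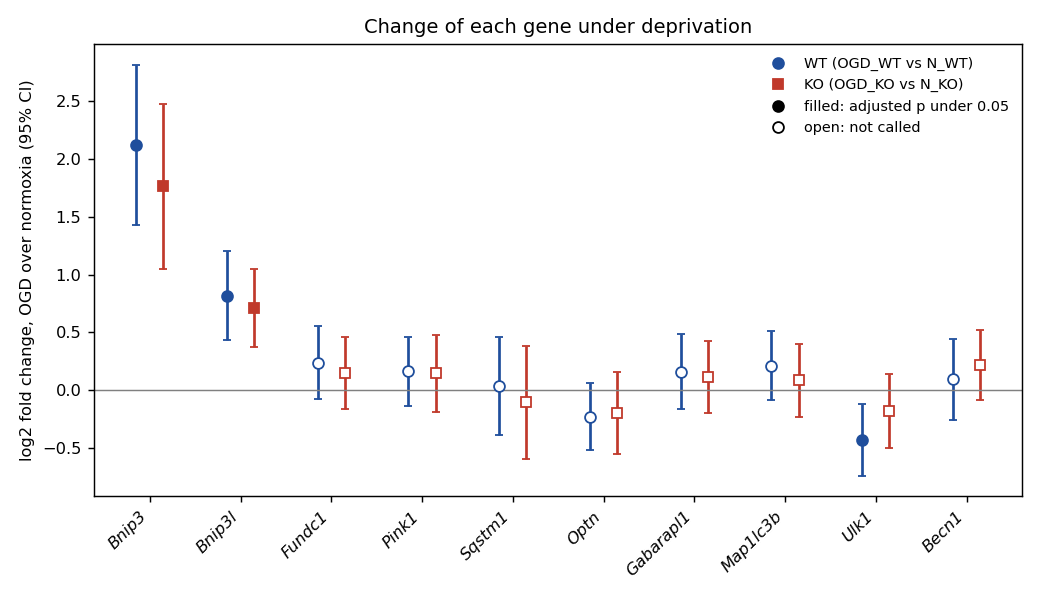
Log2 fold change of OGD over N (vertical axis) for each of the 10 genes, in WT (circles) and KO (squares), with 95% confidence intervals, filled where the limma adjusted p was under 0.05. Bnip3 (2.12 and 1.76) and Bnip3l (0.82 and 0.71) lie above 0 in both genotypes, and Ulk1 (-0.43) lies below 0 in WT.

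Fundc1, the third receptor, was not called. Its WT difference was 0.24 (95% CI -0.08 to 0.56) and its KO difference 0.15 (95% CI -0.16 to 0.46). In both genotypes this interval overlapped that of Bnip3l, and the difference between these genes was not tested. Its levels ran from 3.99 to 4.62 log2 CPM in N_WT and from 4.36 to 4.81 in OGD_WT. Pink1, the kinase that accumulates on damaged mitochondria, had 5.28 to 5.70 in N_WT and 5.44 to 6.00 in OGD_WT, with differences of 0.17 in WT (95% CI -0.13 to 0.46) and 0.15 in KO (95% CI -0.18 to 0.48). The values of Fundc1 and Pink1 changed sign in both genotypes with total-read scaling, as did those of Gabarapl1, Map1lc3b and Becn1. They then lay between -0.20 and -0.03. Sqstm1 changed sign in WT, to -0.24.

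The adaptor Sqstm1 (ENSMUSG00000015837, chromosome 11, 50199366 to 50210827, minus strand) links ubiquitin to ATG8 proteins. Its levels were 6.96, 7.07, 6.92, 7.36 and 6.04 log2 CPM in N_WT and 6.78, 6.44, 6.93, 7.35 and 7.05 in OGD_WT. In KO they were 6.93, 6.79, 6.97, 6.76 and 7.02 in N and 6.97, 7.61, 6.80, 6.84 and 5.74 under OGD. The means hardly differed, with differences of 0.04 (SE 0.205, 95% CI -0.39 to 0.46) and -0.10 (SE 0.234, 95% CI -0.59 to 0.38), but single cultures moved in opposite directions, from -1.28 in KO5 to 1.01 in WT5. Optn, the other adaptor, was lower under OGD in 4 of 5 cultures of each genotype, with differences of -0.23 (adjusted p 0.194) and -0.20 (adjusted p 0.364), and was not called.

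Among the ATG8 proteins, Gabarapl1 differed by 0.16 in WT (95% CI -0.16 to 0.48) and 0.11 in KO (95% CI -0.19 to 0.42). Map1lc3b was higher under OGD in 5 of 5 WT cultures, by 0.01 to 0.50, and in 3 of 5 KO cultures, and neither difference was called (0.21, adjusted p 0.244, and 0.09, adjusted p 0.677). Becn1 was not called either, at 0.09 in WT (95% CI -0.26 to 0.44) and 0.22 in KO (95% CI -0.09 to 0.52). For these genes the intervals left room for changes of up to 0.52 on the log2 scale in either genotype.

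Compared per kilobase of merged exons, the order of levels was led by Gabarapl1 in every group. In N_WT Gabarapl1 had 47.3 CPM per kilobase (geometric mean of 5 libraries), Sqstm1 34.9, Bnip3l 27.0 and Pink1 17.0. Bnip3l lay above Pink1, and Pink1 above Ulk1, in every N_WT library, whereas Gabarapl1, Sqstm1 and Bnip3l overlapped with their neighbours. The remaining 6, Ulk1, Becn1, Map1lc3b, Fundc1, Bnip3 and Optn, lay between 9.69 and 7.58 and overlapped from each to the next. Under OGD, Bnip3 moved from the ninth place to the fourth, at 35.0 in OGD_WT, and from the fifth to the fourth, at 31.6 in OGD_KO, and Bnip3l to the second, at 47.5 in OGD_WT and 44.2 in OGD_KO. Bnip3 overlapped with the genes next to it on both sides in all of these groups, and Bnip3l with Gabarapl1 and Sqstm1 under OGD, so these places are not separated beyond the spread between libraries. Merged exon lengths count every annotated exon, so genes with many little-used exons are understated on this scale.

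Reads of several of these genes could be shared with others. Of the 50-base stretches of Bnip3 transcripts, 16.5% also occur in other annotated genes, led by the predicted gene Gm16439, and 20.8% of those of Bnip3l occur in Bnip3l-ps. None of these copies was among the genes measured here. Pink1 shared 3.0% of its stretches with Gm27646 and Mir7019, which overlap its exons on the same strand and were not measured here. Map1lc3b shared 5.8% of its stretches with other genes, many of them measured here, and Becn1 shared 0.1%, with Dhodh and Lyrm7 among the measured genes. Exons of Bnip3 (with Gm45507), Sqstm1 (with Mrnip), Gabarapl1 (with 1700101I11Rik), Map1lc3b (with Zcchc14), Optn (with 4930551O13Rik) and Becn1 (with Cntd1) overlap a gene on the other strand. The kit keeps strand, but whether the counting used it is not given in the sources used here, so such reads may be mixed.

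The study also asks what the loss of ciRS-7 does, at rest and under deprivation. No member was called between genotypes. In N_KO against N_WT, 0 of 10 were called by limma, beside 0.0353% of 14152 genes, and in OGD_KO against OGD_WT, 0 of 10, beside 0.0282% of 14185 genes. In both, 0 of 10 had an unadjusted p under 0.05 and 0 of 10 were called with limma voom. The member with the widest gap was Bnip3 in N, at 0.25 (SE 0.357, 95% CI -0.50 to 0.99), a value that was -0.03 without N_KO replicate 4, 0.06 without N_KO replicate 2, 0.62 without N_KO replicate 5 and -0.17 with batch as a covariate. Under OGD the widest gap was that of Ulk1, at 0.14 (95% CI -0.19 to 0.47). For Bnip3 under OGD the difference was -0.13 (95% CI -0.89 to 0.63), an interval that does not exclude differences down to -0.89.

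The response to OGD was compared between genotypes over all 20 libraries on a joint log2 CPM scale. Again 0 of 10 were called by limma, 0 had an unadjusted p under 0.05 and 0 were called with limma voom, beside 0.0% of 14129 genes. For Bnip3 the KO response was smaller by 0.38, an estimate with an SE of 0.57 and a 95% CI from -1.55 to 0.79. For Bnip3l the value was -0.13 (95% CI -0.66 to 0.39) and for Sqstm1 -0.17 (95% CI -0.87 to 0.53). Genotype and batch were not balanced, since batch 3.1 held 1 WT and 2 KO cultures and batch 3.3 held 2 WT and 1 KO. Within batches, the Bnip3 response of KO minus that of WT was -0.42 in batch 1, 0.97 in batch 3.1 and 0.54 in batch 3.3, and batches 2 and 3.2 held 1 genotype each. With the batch label entered beside genotype, a choice made after the data were seen, the Bnip3 estimate was 0.42 (SE 0.32, 95% CI -0.22 to 1.07), opposite in sign to the pooled one and again not called.

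The Bnip3 response fell into ranges by batch label, as the plot of single cultures shows. In batch 3.3 Bnip3 was higher under OGD by 2.91 to 3.73, in batches 1, 2 and 3.2 by 2.06 to 2.48, and in batch 3.1 by -0.56 to 0.52. On the joint scale, where WT and KO levels share 1 scaling, Bnip3 stood in N at 5.12 to 5.50 log2 CPM in batch 3.1, at 4.0 to 4.28 in batches 1, 2 and 3.2 and at 2.88 to 3.8 in batch 3.3. Under OGD it stood at 4.55 to 6.02, 6.35 to 6.53 and 6.66 to 7.22 in the same order. These ranges of the 3 sets of cultures, formed after the values were seen, did not overlap in either treatment, and their order in N was turned under OGD. The middle set is replicates 1 and 3 of both genotypes, the libraries that lay near their group means over all genes, and its place between the others cannot be told apart from that.

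**Figure D3:**
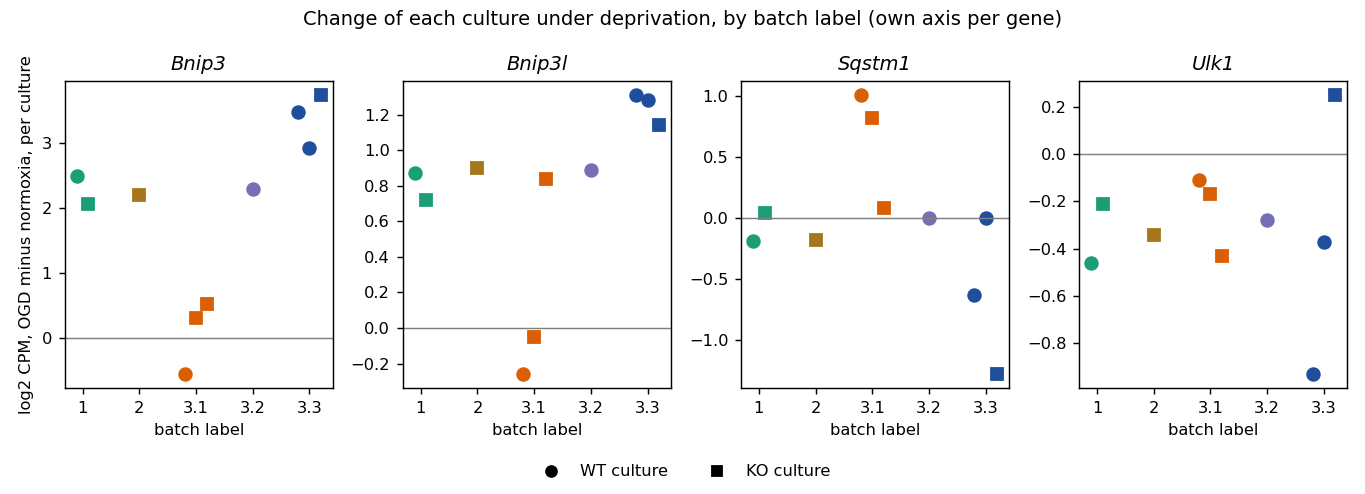
Difference in log2 CPM between the OGD and the N library of each culture (vertical axis, own scale per panel) by batch label (horizontal axis) for Bnip3, Bnip3l, Sqstm1 and Ulk1, with circles for WT and squares for KO cultures. For Bnip3 the 3 cultures of batch 3.3 lie between 2.91 and 3.73 and the 3 of batch 3.1 between -0.56 and 0.52, and for Sqstm1 the 3.1 cultures lie at 0.08 to 1.01 and the 3.3 cultures at -1.28 to 0.00.

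Bnip3l followed the same order in part, at 1.14 to 1.31 in batch 3.3 and -0.26 to 0.84 in batch 3.1. For Sqstm1 the order was turned, with 0.08 to 1.01 in batch 3.1 and -1.28 to 0.00 in batch 3.3. A limma fit of the response of the 3 cultures of batch 3.3 against the 3 of batch 3.1 was added after these values were seen. It called 2 of 10 members, beside 3.17% of 14129 genes. The 2 include Bnip3, so the count describes these cultures and is not a test of the members against all genes. The Bnip3 response was larger by 3.34 in batch 3.3 (SE 0.38, 95% CI 2.60 to 4.07), and since Bnip3 prompted the choice of batches, this is a description. The Sqstm1 response was lower by 1.26 (the difference was -1.26, 95% CI -2.0 to -0.52, limma adjusted p 0.0338), a call that was lost when any of 5 of the 6 cultures was left out, all but WT4 (-1.58 without it; -0.93 at adjusted p 0.429 without KO5 to -1.53 at adjusted p 0.0586 without KO4). The values of Sqstm1 had also been seen before this fit was added, so its call is a description too. Bnip3l (1.09, adjusted p 0.0912) and Becn1 (0.78, adjusted p 0.312) were not called. The fit takes its spread from all genes, and an exact permutation of 3 against 3 cultures could not go below 0.1.

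Depth and the marker sums of the batches overlapped. Batch 3.1 libraries held 7070850 to 13766528 reads over the genes shared by all tables, and those of batch 3.3 held 7492452 to 14761432. Neuron markers summed to 3967 to 5180.0 CPM under OGD in batch 3.1 and to 3500.2 to 5934 in batch 3.3. The share of mt-Rnr2 under OGD was 18.0% to 23.2% in batch 3.1 and 13.8% to 32.0% in batch 3.3. The part of depth, cell makeup and mt-Rnr2 in the difference between batches was not tested. What the batch label stands for is not given in the sources used here.

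The genes whose pattern over the 20 libraries was closest to Bnip3 were Fam162a, Plod2 and Gpi1. Closeness was the root mean square difference of log2 CPM centred on the mean of each gene, which was 0.305, 0.306 and 0.311 for these 3, beside a median of 1.26 over 14128 genes and a spread of 1.22 for Bnip3 itself. All 3 had responses of at most 1.47 in batch 3.1 and at least 2.46 in batch 3.3; they were chosen by closeness in these same libraries. Bnip3l was the closest of the other members, in place 409 at 0.806. For Sqstm1 the closest genes were Mfhas1 (0.168), Rcan1 (0.178) and Pcdhga12 (0.204), and for Pink1 they were Abcd3 (0.096), Rnf10 (0.108) and Cramp1 (0.121). Among members, Gabarapl1 was closest to Pink1, in place 69 at 0.167. The spread of Pink1 itself was 0.217, which is also the distance of a gene that does not vary, and the median over all genes was 0.413. For Sqstm1 the spread was 0.407 and the median 0.539.

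A wider set of 94 autophagy genes in 5 lists, 93 of them measured and all but Vamp8, places these members. Of the 93, 22 were called higher and 11 lower under OGD in WT, and 17 higher and 7 lower in KO, beside the shares of all genes given above. With total-read scaling the counts were 8 higher and 22 lower in WT and 5 and 22 in KO, beside the counts over all genes given above for that scaling. The median difference was 0.085 in WT and 0.076 in KO. No gene of the lists was called by limma between genotypes, in N or under OGD.

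Genes of autophagosome fusion and the lysosome were called higher for 10 of 25 and lower for 3 in WT, beside 21.6% and 22.8% of all genes. In KO 7 were called higher and 2 lower, beside 21.0% and 19.9%. The median difference was 0.25 and 0.27. With total-read scaling the counts called higher over all lists together, given above, were below these counts of this list alone. Some of its higher calls were thus lost on that scale. Lamp2, a main protein of the lysosomal membrane, rose by 1.06 in WT (SE 0.149, limma adjusted p 8.5e-06) and 0.94 in KO (SE 0.135, limma adjusted p 2.71e-05). In N libraries it ran from 5.81 to 6.28 log2 CPM on the joint scale and in OGD libraries from 6.77 to 7.50, without overlap. Tfeb, the transcription factor of lysosomal genes, rose by 0.89 and 0.90 from a low level. In the other direction, Stx17 and Snap29, which encode the SNARE proteins that fuse the autophagosome with the lysosome, differed by -1.41 and -0.82 in WT and by -1.58 and -0.78 in KO, all called lower. Stx17 ran from 4.58 to 5.61 log2 CPM in N libraries and from 2.94 to 4.07 in OGD libraries.

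Of the genes of initiation and membrane nucleation, 5 of 21 were called higher and 4 lower in WT. In KO the counts were 5 and 2. All genes had 21.6% and 22.8% in WT and 21.0% and 19.9% in KO, so these counts lay near or below those shares. Wdr45 and Wipi1, which bind the lipid made at the nucleation site, rose by 0.96 and 0.74 in WT and by 0.75 and 0.50 in KO. Ulk2, the close relative of Ulk1, fell by 0.94 in WT (SE 0.168, limma adjusted p 0.000121) and 0.86 in KO (SE 0.145, limma adjusted p 0.000129). The values of Ulk1 were -0.43 and -0.18, and the difference between these 2 genes was not tested. With the culture as a block, Wipi1 was not called in KO (adjusted p 0.0681), nor was it in 4 of 10 fits that left out 1 library. Nrbf2, a partner of the Becn1 complex, fell by 0.73 and 0.61. Lamp2, Tfeb, Stx17, Snap29, Wdr45 and Ulk2 were called in both genotypes under every alternative run. These include the fits of replicates 2, 4 and 5 alone, which take their spread mainly from all genes.

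Among 23 further mitophagy genes, 2 were called higher and 2 lower in WT, and 1 and 2 in KO, beside the same shares of all genes. Differences between the lists were not tested. Mfn1, a fusion protein of the outer mitochondrial membrane, rose by 0.39 and 0.43, and its WT call was lost in 8 of 10 fits that left out 1 library. Nipsnap1 and the phosphatase Pgam5 fell by 0.51 and 0.39 in WT and by 0.63 and 0.43 in KO. With the culture as a block, Pgam5 was not called in WT (adjusted p 0.0672) or KO (adjusted p 0.0752). Leaving out 1 library ended its call in 8 of 10 fits in WT and in 4 of 10 in KO.

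Of 10 further cargo adaptors, 2 were called higher and 1 lower in each genotype. All genes had 21.6% and 22.8% in WT and 21.0% and 19.9% in KO. Calcoco1 and Nbr1 rose by 0.53 and 0.39 in WT and by 0.50 and 0.42 in KO, and Retreg1, an adaptor for the endoplasmic reticulum, fell by 0.72 and 0.81. With the culture as a block, neither Calcoco1 (adjusted p 0.0623) nor Nbr1 (adjusted p 0.0648) was called in KO. Leaving out 1 library ended the Nbr1 call in 8 of 10 fits in WT and in 6 of 10 in KO. It ended the Calcoco1 call in 5 of 10 fits in KO. Of 14 further genes of the ATG8 family and its conjugation, 3 were called higher and 1 lower in WT and 2 higher in KO. These counts stand beside the same shares of all genes. Gabarap rose by 0.54 and 0.63, unlike its relative Gabarapl1, whose values were 0.16 and 0.11, though the difference between the 2 genes was not tested. Atg16l2 rose by 0.53 in WT, with 0.39 in KO (adjusted p 0.0677), and the protease gene Atg4d fell by 0.56 in WT, with -0.08 in KO (adjusted p 0.675). The block ended both WT calls, at an adjusted p of 0.0943 for Atg16l2 and 0.0590 for Atg4d. The Atg16l2 call was also lost in 5 of 10 fits that left out 1 library. Mfn1, Calcoco1, Nbr1, Gabarap and Atg16l2 were not called with total-read scaling in either genotype. With replicates 2, 4 and 5 alone, none of the genes named from the mitophagy, adaptor and ATG8 lists was called in WT.

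**Figure D4:**
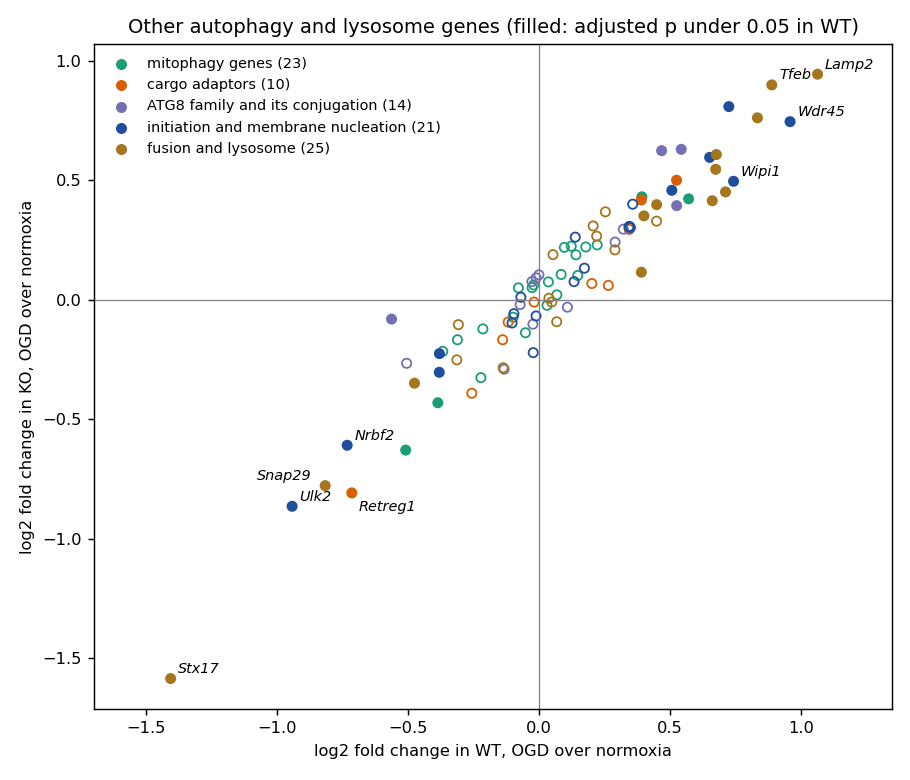
Log2 fold change of OGD over N in WT (horizontal axis) and in KO (vertical axis) for the 93 measured genes of the 5 wider lists, coloured by list and filled where the limma adjusted p was under 0.05 in WT. Lamp2 lies highest on both axes, at 1.06 and 0.94, and Stx17 lowest, at -1.41 and -1.58.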

How the data were processed

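The authors deposited 4 tables, 1 per comparison, of 10 libraries each and with values in log2 CPM, per the file headers and the values. The genome build was mm10, per the submitters' processing notes; aligner, counter, annotation and scaling are not given in the sources used here. Within each gene and group the lowest and highest values had been clipped toward their neighbours (10th and 90th percentiles), which was inferred from the values. As deposited, 45.27% to 92.77% of a library's values gave whole reads, and with the clipping undone at least 99.909% did (within 0.05 reads, up to 500 reads).

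Each comparison was fitted in its own table with limma 3.58.1 in R 4.3.3 (eBayes with intensity trend, no block) on the unclipped log2 CPM, with Benjamini-Hochberg adjustment over all genes and a threshold of 0.05. A library's value for a member differed by 0.11 to 0.17 between its 2 tables, so WT and KO levels were compared only within a table or on the joint scale. The interaction used recovered reads of 14129 genes, scaled by the median of ratios with a prior count of 2. Single values were also tested by exact permutation (scipy 1.17.1), and the scripts were tested on simulated data. Coordinates are from GENCODE M21 (GRCm38, the same assembly as mm10), and promoters from RefSeq.

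All 10 members are named. From each wider list the called genes with the largest change in WT are named, up to 2 higher and 2 lower, and for Bnip3, Sqstm1 and Pink1 the 3 genes with the closest pattern. A gene that this rule picks is not reported here. The members and lists were chosen with earlier results of these data known. The N and OGD libraries of a number share the genotype label and the batch, so the labels pair them. Their deviations from the group means did not go together. They ran strongly in opposite directions for number 3, and weakly so or not at all for the others. The correlation over 12687 genes was -0.72 in WT and -0.79 in KO for number 3, and -0.33 to 0.03 for the other numbers. The cause was not tested. KO and WT libraries of a number share only that number, except number 1, which also shares batch 1. Alternatives covered the clipping, prior count, filter, scaling, trend, voom, block, batch and left-out libraries.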

Additional observations from a re-analysis of the deposited data

Results flagged for a closer look

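In 40 sets of 5 values (10 genes in 4 groups), 3 held a library far from the other 4, where chance gives about 1 in 20, or 2. Bnip3 in N_WT replicate 5 had 5.14 log2 CPM, above the 3.75 to 4.15 of the others. Map1lc3b, the ATG8 protein LC3B, had 6.70 in OGD_WT replicate 2, above the 6.09 to 6.22 of the others. Optn, the adaptor, had 4.10 in N_KO replicate 4, below the 4.72 to 4.92 of the others.

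The response to OGD stood apart between batches 3.3 and 3.1, of 3 cultures each, for 2 genes. For Bnip3 it was larger by 3.34 in batch 3.3, which is a description, since the values of Bnip3 prompted the comparison. For Sqstm1 it differed by -1.26, with a limma adjusted p of 0.0338 that became 0.0586 to 0.429 when any of 5 of the 6 cultures was left out. The values of Sqstm1 had also been seen before the comparison was added, so this is a description too.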

How the results depend on the processing

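Bnip3 was called higher in both genotypes under every alternative run, from 1.84 to 2.55 in WT and 1.39 to 2.03 in KO. With replicates 2, 4 and 5 alone, that call says little about the spread between cultures. This fit takes its spread mainly from all genes, with a Bnip3 SE of 0.306 in WT and 0.308 in KO. An exact permutation of 3 against 3 libraries could not go below 0.1. Of 10 members, the count called in WT was 3, and it was 2 or 3 with any 1 library left out. It was 2 with batch 3 cultures only (losing Ulk1), beside 4916 of 14235 genes. It was 4 with total-read scaling (adding Optn), beside 7400 of 14235 genes, and 1 with replicates 2, 4 and 5 alone, beside 2411 genes. In KO it was 2, and it was 2 with any library left out and 4 with total-read scaling (adding Ulk1 and Optn), beside 6811 of 14375 genes. It was 1 with batch 3 cultures only and with replicates 2, 4 and 5 alone, which are the same libraries there, beside 2341 genes. Counts of 0 in N_KO vs N_WT, OGD_KO vs OGD_WT and the interaction were 0 under every alternative. In the batch comparison the count of 2 became 1 without WT replicate 2, WT replicate 5 or KO replicate 2, 4 or 5, and ranged from 1 to 2.

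Among the wider lists, total-read scaling gave 8 higher and 22 lower in WT, and 5 and 22 in KO. Replicates 2, 4 and 5 alone gave 5 and 3 in WT, and 5 and 4 in KO, where batch 3 cultures only is the same fit. Over all genes that fit gave 1140 higher and 1271 lower in WT, and 1190 and 1151 in KO. Batch 3 cultures only gave 6 lower in WT, beside 2522 of 14235 genes. Averaging replicates 1 and 3 gave 5 lower in WT, beside 2409 genes. It gave 10 higher in KO, beside 2202 of 14375 genes. In KO the clipped values as deposited gave 29 higher, beside 4115 genes. Leaving out single libraries gave 11 (without OGD_KO replicate 3) to 19 higher, beside 2518 to 3054 genes over these fits. The cause of these shifts was not tested beyond the smaller number of libraries in some fits.

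With the replicate block (the culture), 3 members were called in WT and 2 in KO, as without it, beside 5681 and 4829 genes. In KO the wider lists had 11 called higher in place of 17, beside 2491 genes in place of 3021. The block lost the calls of Pgam5, Atg16l2 and Atg4d in WT and of Pgam5, Calcoco1, Nbr1 and Wipi1 in KO, and changed no other call of a named gene. In the comparisons of KO with WT the block on the number called 0 members.

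Over all genes, replicates 2, 4 and 5 alone called 2411 in WT and 2341 in KO, against 6313 and 5884 with all. N_KO vs N_WT called 5, and 9 as deposited, 3 with the low filter or the block, 11 with batch as covariate, 2 in batch 3 and 29 with replicates 2, 4 and 5. OGD_KO vs OGD_WT called 4, and 12 as deposited, 1 with a prior count of 0.5, 2 with the block or replicates 1 and 3 averaged, 17 with batch as covariate and 18 with replicates 2, 4 and 5. The interaction called 14 with batch by treatment as covariate and 0 otherwise. The batch comparison called 448, and 157 to 348 with a culture left out. Members had at least 97 reads in every library.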
